A study of Rattus norvegicus with 15 samples.

Results

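ATP-binding cassette (ABC) transporters and the carriers of organic ions, peptides and bile acids form a large set of membrane proteins, here taken as 1 group of genes in rat olfactory epithelium. Members were chosen by gene name alone: every non-control probe of the array whose name begins with Abca to Abcg followed by a digit, or with Slc22a, Slco, Slc47a or Slc15a. The rule found 95 of the 41012 probes, for 78 genes, of which 46 were ABC genes (58 probes) and 32 were carriers (37 probes). No probe carried an Slc47a name or that of Slco1a1. Of the genes, 15 had several probes.

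The tissue came from 8 Brown Norway rats aged 6 weeks, 4 males (rats 1, 2, 5 and 6) and 4 females (rats 3, 4, 7 and 8). The epithelium of each nostril, A or B, was hybridized to its own one-color Agilent whole rat genome array, apart from male 1, which gave nostril A only, so that there were 15 arrays. All rats were of 1 strain and 1 age, and the labels name no treatment. Suppliers of the animals were not analysed here. The arrays lay on 4 slides: males 1 and 2 and nostril A of female 3 on slide 1, female 4 and nostril B of female 3 on slide 2, males 5 and 6 on slide 3, and females 7 and 8 on slide 4. A level is the log2 of a signal divided by the median signal of its array, with a floor at -3.32, and levels of different probes are not comparable.

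ABC proteins use ATP to move substrates, mostly outward across the plasma membrane or into organelles, and include the drug efflux pumps, cholesterol and phospholipid exporters, peroxisomal fatty acid importers and the sulfonylurea receptors that regulate potassium channels. The E and F subfamilies have the ATP-binding domains without membrane spans and work at the ribosome. The Slc22a and Slco families carry organic cations and anions, steroid conjugates, bile acids and thyroid hormones into cells, and the Slc15a family carries di- and tripeptides or histidine with protons. In the nose these proteins meet inhaled chemicals and their conjugates, and in the brain several of them mark the endothelium of the blood-brain barrier.

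The sequences of 10 probes show what the array read at the genes on which the results turn. They are the printed 60-base probes of the array files, or, for some, only the first 30 bases of a probe, where its place in the transcript was not known. Positions are those of the array annotation on build rn3 of the rat genome, which gives neither exons nor untranslated regions. The first 4 are the probes of the barrier-type transporters Slco1c1, Slco1a4 (at chr4_random, a part of chromosome 4 not placed in that build) and Abcg2.
Slco1c1, chr4:179251644-179251703, plus strand, first 30 bases: gacccgactttaagaacaagaaatcacgga
Slco1a4, first probe, chr4_random:2088564-2088623, plus strand, first 30 bases: ggctattctcatattcagggggcttcaatg
Slco1a4, second probe, chr4_random:2087593-2087652, plus strand, first 30 bases: ctggggacattgagtcttcaaaaactgatc
Abcg2, chr4:87802630-87804206, plus strand: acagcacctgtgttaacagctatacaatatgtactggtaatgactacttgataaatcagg

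The annotated position of the Abcg2 probe spans 1577 bases of the genome for 60 bases of probe, and 29 of the 94 member probes with a position likewise span more than their own length. The next 4 probes belong to genes whose detection differed from probe to probe or was absent: both probes of Abcb11, the bile salt export pump (on an unplaced part of chromosome 3), and the probes of the multidrug efflux pumps Abcb1 and Abcb1a.
Abcb11, detected on 15 arrays, chr3_random:691617-691676, plus strand: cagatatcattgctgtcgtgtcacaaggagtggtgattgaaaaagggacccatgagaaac
Abcb11, detected on 0 arrays, chr3_random:624196-624255, plus strand, first 30 bases: ctgggactctggtcctatcagagctgggaa
Abcb1, chr4:21899463-21899522, plus strand: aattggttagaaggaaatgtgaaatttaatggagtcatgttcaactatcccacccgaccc
Abcb1a, chr4:21795859-21795918, plus strand, first 30 bases: gtaaatatttgataatatatacttttattt

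Member probes were also compared with one another, and the last pair gives an example of a shared run. They were not compared with the transcripts of other members, so cross-hybridization was not tested. Capitals mark the run of 11 bases that the probes of Abcb10, a mitochondrial transporter, and Abcc4, a plasma membrane exporter of organic anions and cyclic nucleotides, have in common, inside the conserved ATP-binding fold.
Abcb10, chr19:54157783-54158924, minus strand: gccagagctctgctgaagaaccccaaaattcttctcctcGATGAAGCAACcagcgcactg
Abcc4, chr15:103416879-103416938, minus strand: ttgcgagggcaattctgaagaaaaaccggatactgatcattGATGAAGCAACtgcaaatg
Over all 4465 pairs of member probes the longest shared run was 12 bases, between Slco1b2 and Slc22a8. The first and second Slco1a4 probes shared no run longer than 6 bases, and neither did Slco1c1 and either of them.

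Most of these transporters were detectable in the epithelium. Of the 78 genes, 58 had a probe detected on at least 11 of the 15 arrays, the rule for expressed, 3 were weakly expressed (1 to 10 arrays) and 17 were detected on no array. By probe, 70 of 95 were expressed, 4 weakly expressed and 21 not expressed, beside 65.1% of all probes on the array expressed. The share of member probes expressed was 73.7%. Of the 70, 62 were detected on all 15 arrays. Between 66 and 72 member probes were detected per array, so no array stood apart. The 70 expressed members were also exactly those that entered the tests, which took probes detected on at least 7 arrays.

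Detection differed from family to family. Every probe of the C, D, E and F subfamilies of ABC genes was expressed, 22 in all. In the A subfamily 10 of 18 probes were, for 8 of 14 genes, and in the B subfamily 8 of 11, for 7 of 9 genes. In the G subfamily 4 of 7 probes were expressed, in Slc15a 4 of 5, in Slc22a 11 of 18 and in Slco 11 of 14.

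**Figure D1:**
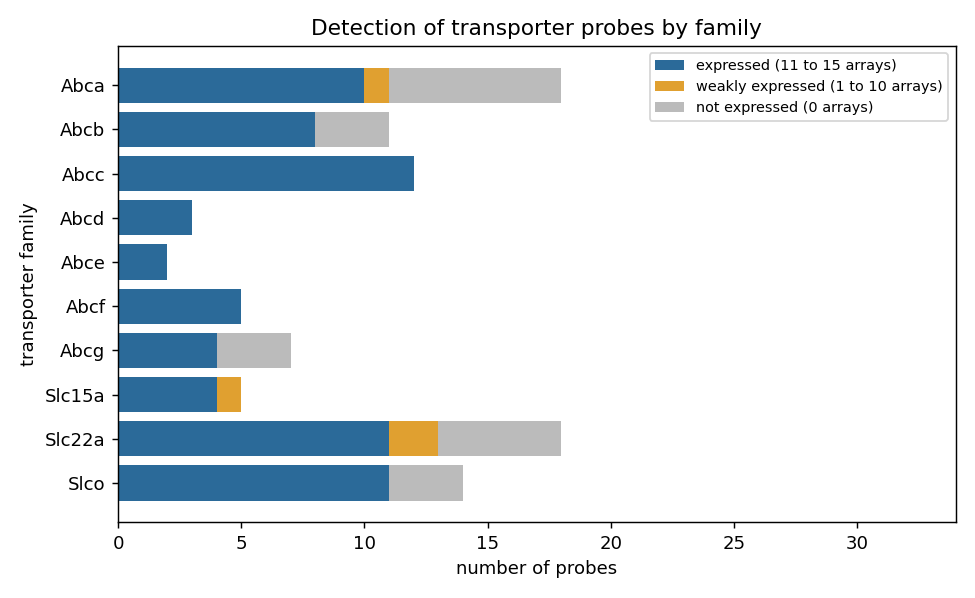
Number of member probes (horizontal axis) in each transporter family (vertical axis), colored by the number of the 15 arrays on which the scanner software called them well above background. Abcc to Abcf are expressed throughout, with 12, 3, 2 and 5 probes, while the undetected probes lie in Abca (7), Abcb (3), Abcg (3), Slc22a (5) and Slco (3).

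Among the drug efflux pumps, Abcb1a and Abcb1 (Abcb1b in the RefSeq table), the P-glycoproteins of barriers and of the adrenal gland and other tissues, were detected on 0 of 15 arrays each. Each call rests on 1 probe. That of Abcb1a has 16.7% G and C bases, the lowest share among the member probes, and that of Abcb1 has 40%. Whether RNA of these genes was absent was not tested. The multidrug resistance proteins Abcc1, Abcc2, Abcc3, Abcc4 and Abcc5, exporters of glutathione and glucuronide conjugates and of nucleotides, were expressed by all 7 of their probes, each detected on 15 arrays. Abcg2, the breast cancer resistance protein that exports sulfate conjugates and many drugs, was detected on 13 arrays. It was not well above background on the other two, and its levels ran from -2.37 to -0.54 over all 15. For a set known from liver, kidney and gut, the calls split. Abcg5 was detected on 14 arrays, and Abcg8, with which it forms the plant sterol exporter, on none with either probe. Abcb4, the phosphatidylcholine exporter of bile, was detected on 15 arrays.

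The Abcb11 probes disagreed. The probe detected on 15 arrays had levels from -2.18 to -0.72, and the other on the same unplaced segment was on the floor on every array. One is annotated from a curated transcript and the other from a predicted one, and the call of this gene as expressed rests on the first alone. No other gene had 1 probe expressed and another detected nowhere.

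Of the carriers known chiefly from kidney and liver, Slc22a8 (organic anion transporter 3) and Slco1b2 (the liver bile acid and bilirubin carrier) were detected on no array. Slc22a3 (organic cation transporter 3), Slc22a14, Slc22a19, Slc22a9 (Slc22a25 in the RefSeq table), Slco6b1 and Slco6c1, the Slco6 genes being known from testis, were not detected either. Slc22a12, the urate transporter of the kidney, reached 1 and 2 arrays with its probes, and Slc15a1, the peptide carrier of the intestine, 5 arrays. Slc22a6 (organic anion transporter 1) and Slc22a2 (organic cation transporter 2) were expressed, on 13 and 15 arrays. Slc22a4 and Slc22a5, the carriers of ergothioneine and carnitine, were detected on 15 arrays, the latter with both probes.

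The undetected ABC genes were Abca6, Abca9, Abca12, Abca15 (both probes), Abca17, Abcb1, Abcb1a, Abcg4 and Abcg8. Abca4, the retinoid flippase of photoreceptors, was seen on 1 array by 1 of its probes. Abca12 supplies lipid to the skin barrier and Abcg4 is an exporter of sterols in neurons. Absence of detection here means a signal not well above background. On no array did the lowest signal called so exceed 14.5 intensity units, and the array medians lay between 57.4 and 83.4.

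Of genes that work with these transporters, taken from a list of ABC genes under other symbols, partner proteins, scaffolds, other carriers and nuclear regulators, 41 of 47 had a probe. Of their 49 probes 31 were expressed and 9 detected on no array. Kcnj8 and Kcnj11, the channel pores that pair with the sulfonylurea receptors Abcc9 and Abcc8, were detected on 15 arrays each, as were Tap1, Tap2 and Tapbp of peptide loading. The xenobiotic receptor Nr1i2 was detected on 4 arrays, and Nr1i3 and the bile acid receptor Nr1h4 on none. Nfe2l2, the regulator of the antioxidant response, and Nr1h2 and Nr1h3, the oxysterol receptors that induce Abca1 and Abcg1, were detected on 15.

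The labelled tissue carried its defining markers: 5 of 5 probes for sustentacular cells, 7 of 7 for mature and 4 of 4 for immature olfactory neurons were expressed. Markers of other tissues varied among the arrays. The hemoglobin gene Hbb ranged from a level of 5.84 in female 7 to 9.13 in male 6, the summed level of the red cell list from 59.4 to 1419 times the array median, and 3 of its 4 tested probes passed 1% between rats. Both genes with a role in heme synthesis among the transporters moved little beside it: Abcb6, a porphyrin transporter, ranged over rats from 5.99 to 6.32, and Abcb10, which supports heme synthesis in the mitochondria of red cell precursors, from 1.41 to 1.61. The bone list had 4 of 5 tested probes past 5% between rats and a summed level of 1602.5 to 3858 in rats 1 to 4 and 2889 to 6111 in rats 5 to 8, and the basal cell list 3 of 3 and 47.3 to 59.99 against 52.5 to 91.0. The skeletal muscle list, with 1 of 4 probes expressed, summed to 0.448 to 0.561 in rats 1 to 4 and 0.587 to 14.7 in rats 5 to 8. Whether blood, bone, basal cell or muscle content had a part in any difference was not tested.

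The first comparison asked how far individual rats of 1 sex differ, against the difference between the nostrils of a rat. At 1%, the false discovery rate that the study used, no member passed, while 2.79% of all tested probes (768 of 27574) did (limma's F-test, Benjamini-Hochberg adjustment). At 5% 12 of 70 members passed, beside 16.1% of all probes. With normexp background correction none of the 70 did, beside 0.671% of all probes, and 6 had an unadjusted p under 0.05, beside 8.64%. With an unadjusted p under 0.05 there were 18, beside 37.1% of all probes. The 12 were lipid transporters (Abca1, Abca2, Abca8b, Abcg1), peroxisomal Abcd2, the conjugate exporters Abcc1 and Abcc6, the ribosomal Abce1 and Abcf1, the lysosomal histidine and peptide carrier Slc15a4, the prostaglandin carrier Slco2a1 and the organic anion carrier Slc22a7. Without male 2 the count past 5% was 6, beside 9.39% of all probes, and without female 7 it was 8, beside 7.11%.

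The nostrils of 1 rat agreed closely for Abca8b, a lipid transporter, which had the highest F among the members. Its rat means were 5.32 and 5.44 in males 1 and 2, 5.10 and 5.04 in males 5 and 6, 5.06 and 5.08 in females 3 and 4, and 5.17 and 5.18 in females 7 and 8. Males 1 and 2 stood above the other 6 rats, and the SD between the nostrils of a rat was 0.035 (F = 12.8, adjusted p = 0.0104). Without male 2 the F was 4.53 (adjusted p = 0.105), with slide as a block 1.44 (0.56) and with normexp background 1.29 (0.918).

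Abca1, the cholesterol exporter that loads apolipoprotein A-I, ranged over rats by 1.70-fold. It was at 1.80, 2.35, 1.98 and 1.92 in males 1, 2, 5 and 6, and at 2.47, 2.53, 1.76 and 1.93 in females 3, 4, 7 and 8. Females 3 and 4 and male 2 were high, and the other 5 rats lay below 2 (F = 11.8, adjusted p = 0.012). Abcg1, which moves cholesterol to larger lipoprotein particles, was also highest in females 3 and 4 (8.31 and 8.27), but was lowest in male 2 (7.93). Both sterol exporters were thus high in females 3 and 4, and male 2 was high for one and low for the other.

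Several of the 12 divided rats 1 to 4 from rats 5 to 8. Abcc1, the glutathione conjugate exporter, was at 7.20, 7.00, 7.03 and 6.94 in rats 1 to 4, on slides 1 and 2, and at 6.86, 6.92, 6.72 and 6.65 in rats 5 to 8, on slides 3 and 4. The probe of Abcf1, a ribosome-associated protein, that passed 5% lay between 6.32 and 6.38 in rats 1 to 4 and between 6.01 and 6.22 in rats 5 to 8. Abce1, the ribosome recycling factor, went the other way with the probe that passed, from 2.87 to 2.91 in rats 1 to 4 and from 3.03 to 3.31 in rats 5 to 8. Neither gene's other probes passed, and they did not separate the 2 sets of rats. Of the 2 Abce1 probes only 1 was detected on all 15 arrays, so the probe that did not pass is a weak check.

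Over the 70 members 10 had rats 1 to 4 and rats 5 to 8 without overlap, 6 higher and 4 lower in rats 5 to 8, beside 11.4% of all tested probes. The others were Abcb6, Abcb11, Abcc6, Slc22a5, Slc22a13, Slco2a1 and Slco4a1. A difference between slides cannot be told apart from one between the rats on them, since each rat but female 3 lay on 1 slide. With slide as a block, which leaves the contrasts within slides, 0 of 70 members passed 5% by limma, beside 0.116% of all probes, and 5 had an unadjusted p under 0.05, beside 17.1% of all probes. The lowest adjusted p of a member in that fit was 0.194, for Abca2, the lipid transporter of myelin and neurons.

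Abca2 itself was at 8.36 and 8.54 in males 5 and 6, above the 8.15 to 8.29 of the other 6 rats. Slco2a1, which carries prostaglandins into cells, was at -2.24 and -2.44 in females 3 and 4 and between -1.79 and -1.42 in the other rats. Abcd2, importer of very long-chain fatty acids into peroxisomes, was also lowest in females 3 and 4 (5.84 and 5.69). Females 3 and 4 were low for Slc15a4 as well (4.57 and 4.44, against 4.81 to 5.01 in the others), by the probe that passed 5%. Its other probe was at -0.33 and -0.06 there, and at -0.01 to 0.37 in the other rats (adjusted p = 0.209). Among the 10 probes with the highest F, leaving out a rat ended the call at 5% (limma's F-test) for several besides Abca8b. Abcd2 and Slc15a4 lost it without female 4 (adjusted p = 0.139 and 0.0963) or female 7 (0.196 and 0.0984). Abca2 lost it without male 2 or male 6 (0.121 and 0.153), and Abce1 without male 2 (0.055). Abcc6 lost it without male 2, female 3 or female 8 (0.0732, 0.0567 and 0.111). With the deposited ratio table Abcd2 and Slc15a4 lost it (0.0758 and 0.056). Without a filter Abcd2, Slc15a4 and Abcc6 did (0.0514, 0.0506 and 0.0792).

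**Figure D2:**
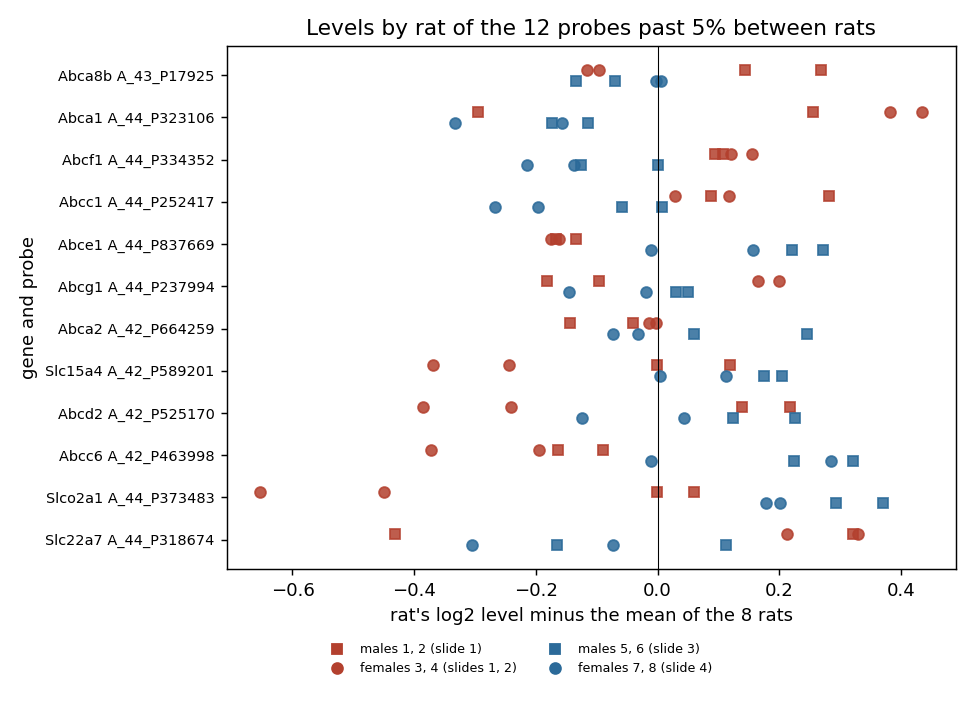
Level of each rat minus the mean of the 8 rats, on the log2 scale (horizontal axis), for the 12 probes with an adjusted p under 5% between rats (vertical axis, highest F at the top). Squares are males and circles females, red for rats 1 to 4 (slides 1 and 2) and blue for rats 5 to 8 (slides 3 and 4). The colors separate completely for Abcf1, Abcc1, Abce1, Abcc6 and Slco2a1 and mix for the others.

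Over all 70 members the median SD between rats was 0.146 and between the nostrils of a rat 0.15, and over all tested probes 0.161 and 0.116. The first SD is taken over rat means and the second over single nostrils. A mean of nostrils varies less than a single nostril, so the SDs are unlike measures and their equality marks no threshold. The range over the 8 rats ran from 0.15 for 1 probe of Slc22a5 to 1.81 for Slc22a6, with a median of 0.44 beside 0.47 for all tested probes. Slc22a6, which exchanges organic anions for dicarboxylates, was at -1.66, -0.87, -1.28 and -1.99 in males 1, 2, 5 and 6 and at -2.69, -1.60, -1.74 and -1.51 in females 3, 4, 7 and 8. The SD between its nostrils was 0.562, and it did not pass by limma's F-test (adjusted p = 0.235). For Slco1c1, both Slco1a4 probes, Abca8a and Abcc9 the SD between the nostrils of a rat was above the SD of the rat means.

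**Figure D3:**
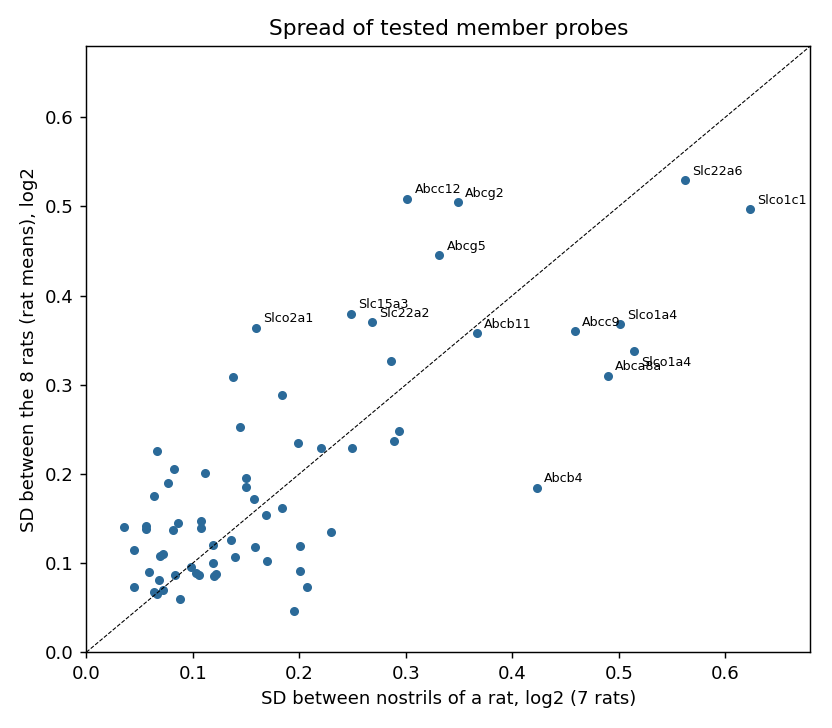
SD between the 8 rat means (vertical axis) against the SD between the nostrils of a rat (horizontal axis, 7 rats), both on the log2 scale, 1 point for each of 67 of the 70 tested member probes, with a dashed line where they are equal. Slco1c1, both Slco1a4 probes, Abcc9, Abca8a and Abcb4 lie below the line, while Slco2a1, Abcc12, Abcg2 and Abcg5 lie above it. The vertical SD is of rat means and the horizontal SD of single nostrils, so the line marks no threshold for a difference between rats.

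The second comparison asked whether the transporters differ between males and females. None of the 70 members passed 1% or 5%, beside 0.0434% of all probes past 1% (12 of 27625) and 20 past 5%. The count past 5% became 5 of 70 with slide as a block, which sets 1 array of female 3 against males 1 and 2, beside 5.63% of all probes, 1 with rat as a random block, beside 3.39%, and 6 with the 15 arrays as independent, beside 12.6%. With an unadjusted p under 0.05 there were 8, beside 17.1% of all probes (limma on rat means, 4 males against 4 females). That count was 4 without female 3, female 4 or male 5 (beside 13.2%, 12.2% and 12.4%) and 2 with normexp background correction (beside 6.63%). The t-test of the study's methods gave 7 at that level, beside 16.2% of all probes, 1 at an unadjusted 1%, beside 1604 of 27625 probes, and 0 after adjustment. The lowest adjusted p belonged to peroxisomal Abcd2, at a lower level in females, and to Abcc4, Abcc12, Slc15a2 and Abca13, at higher ones, none past the threshold.

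Abcd2 was at 6.22, 6.30, 6.31 and 6.20 in males 1, 2, 5 and 6 and at 5.84, 5.69, 6.12 and 5.96 in females 3, 4, 7 and 8. Every female lay below every male, with a difference of -0.35 ± 0.09 (SE), an interval from -0.55 to -0.16 and an adjusted p of 0.115 by limma. It passed 5% with rat as a random block over 15 arrays (-0.36, adjusted p = 0.0221). With slide as a block it was -0.47 (adjusted p = 0.0236), a value that rests on the 1 array of female 3 on slide 1. Males and females did not overlap for 4 of the 70 members, beside 11.3% of all probes, the others being the Abcc4 probe shown above, Slc15a2 and 1 Abce1 probe.

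Abcc4, exporter of cyclic nucleotides and of prostaglandins, was at 4.29, 4.18, 4.16 and 4.22 in males 1, 2, 5 and 6 and at 4.46, 4.68, 4.42 and 4.36 in females 3, 4, 7 and 8. The difference of 0.27 ± 0.08 had an adjusted p of 0.14. With slide as a block it was -0.016, a fit in which only slide 1 compares the sexes, with 1 female and 3 male arrays. Its other probe differed by 0.07, with an interval from -0.18 to 0.31.

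Slc15a2, the high-affinity peptide carrier of kidney, brain and glia, was at 3.30, 3.18, 3.16 and 3.27 in the males and at 3.47, 3.79, 3.38 and 3.44 in the females. The difference was 0.29 ± 0.09, and 0.11 with slide as a block (adjusted p = 0.171 and 0.633). Abcc12, an ABC gene without a settled substrate, was at -2.58, -2.37, -2.0 and -1.73 in the males and at -1.27, -1.82, -1.11 and -1.53 in the females. It differed by 0.74 ± 0.22, an adjusted p of 0.152, and male 6 overlapped the females. With normexp background correction it differed by 0.20. Abca13 was 0.30 higher in females, Slco1a5, a bile acid and organic anion carrier, 0.18 higher, and Abca7, a phospholipid transporter, 0.18 lower (adjusted p from 0.228 to 0.285). With slide as a block Slco1a5 was 0.52 higher (adjusted p = 0.0259) and Abca7 differed by 0.0037, both from the same array of female 3, which was the highest female for Slco1a5 (6.33, next 6.11). Without female 3 the difference of Slco1a5 on rat means was 0.12.

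Abcg2 illustrates what the spread of 4 rats allows. It was at -2.22, -1.13, -1.47 and -1.96 in males 1, 2, 5 and 6 and at -1.37, -0.79, -1.58 and -0.84 in females 3, 4, 7 and 8, a difference of 0.55 with an interval from -0.04 to 1.15. The sexes overlapped, and neither equality nor a 2-fold difference lay outside the interval. For Slco1c1 the interval ran from -0.77 to 0.62 and for Slc22a6 from -1.12 to 0.25. At the narrow end, Abcd3, the main peroxisomal transporter, had a difference of 0.06, with an interval from -0.08 to 0.19, and Slc22a17, the lipocalin receptor, 0.02 (from -0.10 to 0.14). The interval lay within a 2-fold change either way for 67 of 70 members.

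**Figure D4:**
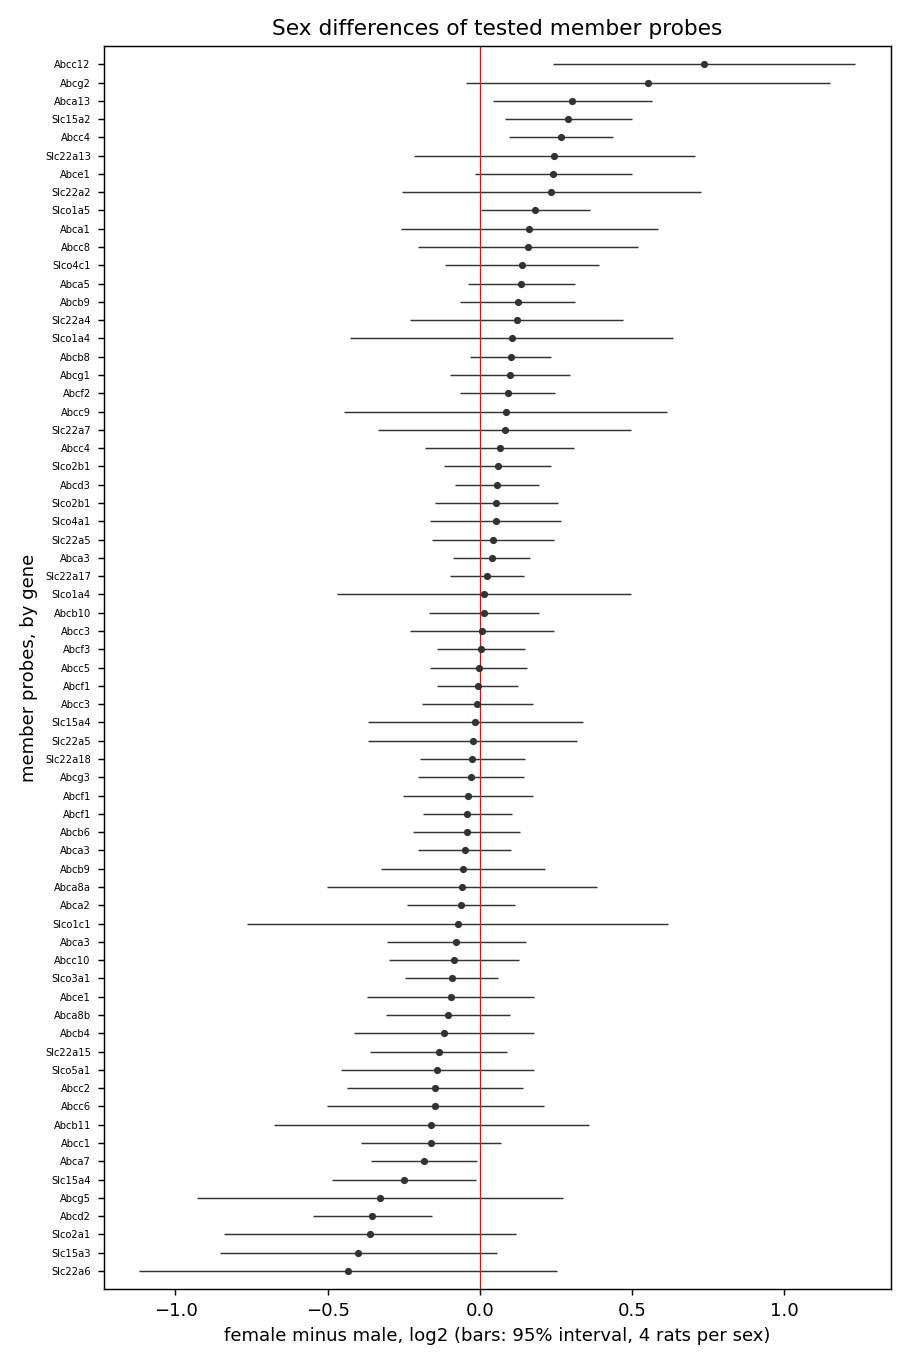
Difference between females and males on the log2 scale (horizontal axis) for 67 of the 70 tested member probes (vertical axis, by gene), with 95% intervals from limma over 4 rats per sex. The intervals are widest for Slc22a6, Slco1c1, Abcg5 and Abcg2, and none of the differences passed 5% after adjustment over all probes.

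The third comparison set nostril B against nostril A in the 7 rats with both. No member and no probe of the array passed 1% (limma with rat as a block, 0% of 27574), and the lowest adjusted p of a member was 0.781. With an unadjusted p under 0.05 there were 11 members of 70, beside 5.89% of all probes. That count was 5 without female 4 (beside 3.72%), 7 without male 6 (4.29%), 3 without the rat as a block (1.47%), 3 with normexp background (1.88%) and 15 without female 3 (6.96%), whose nostrils lay on different slides. Among the members with the strongest statistic were Abca13 and Slco4c1, higher in B, and Abcg5 and Slco2b1, lower in B.

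Abca13, a very large ABC protein of the lipid-transporting subfamily, was higher in nostril B in 7 of 7 rats. Its difference, B minus A, was 0.45 in male 2, 0.35 in male 5, 0.14 in male 6, 0.03 in female 3, 0.42 in female 4, 0.12 in female 7 and 0.09 in female 8. The mean was 0.23 ± 0.06 (SE), with an unadjusted p of 0.00417 and an adjusted p of 0.781 by limma. Slco4c1, a carrier of digoxin and thyroid hormone in kidney, was higher in B by 0.29 ± 0.08, also in 7 of 7 rats. With normexp background Abca13 and Slco4c1 were higher in B by 0.096 and 0.093. B was higher in all 7 rats for 3 of 70 members, these included, beside 1.12% of all probes. The opposite held for 2, Abcg5 (-0.37 ± 0.13, and -0.016 with normexp background) and 1 probe of Abcb9, a lysosomal peptide transporter (-0.18 ± 0.07), beside 0.606% of all probes.

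The SD between the nostrils of a rat was widest for Slco1c1 (0.623), then Slc22a6 (0.562) and both Slco1a4 probes (0.515 and 0.501). Slco1c1, the thyroxine carrier of brain endothelium and astrocytes, was at 1.47 in nostril A and -0.02 in nostril B of female 4, a 2.82-fold difference. In female 8 it was at 1.53 and 0.56, in male 6 at 0.91 and -0.06, in male 5 at 0.53 and -0.16, and in female 3 at 0.29 and -0.25, nostril A first. In female 7 the order was turned, with -0.82 in A and -0.06 in B, and in male 2 both were close, at 0.86 and 0.93. Nostril A of male 1 was at 0.13. Nostril A was thus higher in 5 of 7 rats, by a mean of -0.55 ± 0.23 for B minus A (unadjusted p = 0.04), and of -0.33 with normexp background.

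Slco1a4, which carries organic anions and steroid conjugates at the same barrier, followed Slco1c1 from rat to rat with the probes printed above. B minus A for its first probe was 0.18 in male 2, -0.27 in male 5, -1.18 in male 6, -0.26 in female 3, -1.10 in female 4, 0.58 in female 7 and -0.77 in female 8. The second probe gave 0.20, -0.48, -1.17, 0.08, -1.12, 0.24 and -0.74 in the same order. The first had the sign of Slco1c1 in 7 of 7 rats and the second in 6. Abcg2, the efflux pump of that endothelium, had -0.04, -0.60, -0.82, -0.20, -0.50, 0.34 and -0.51, the sign of Slco1c1 in 6 of 7. With normexp background the mean differences were -0.29 and -0.081 for the Slco1a4 probes and -0.049 for Abcg2.

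No other member had the sign of Slco1c1 in 6 or more rats: 3 of 69 probes, 4.35%, beside 4.63% of all tested probes, so that agreement in sign was not more frequent among the transporters than on the array as a whole. Slco2b1, a steroid sulfate carrier of many barriers, was lower in B in 5 and 6 of 7 rats with its probes, by 0.52 and less. The barrier pumps Abcb1a and Abcb1 were detected on no array by their 1 probe each and could not be compared.

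Some markers of brain tissue had the sign of Slco1c1 between the nostrils of a rat and others did not. The list was chosen after the transporters' values had been seen, and of its 20 probes 15 were expressed, of which 6 had that sign in 6 or more of the 7 rats and the whole list in 0 to 7. The 6 were for Th, Gfap, Gad1, Gad2 and Slc1a3 (both probes), while Slc1a2, Calb1, Mbp, Mog and Aqp4 had it in 5 rats or fewer. Tyrosine hydroxylase (Th), made by dopamine neurons of the olfactory bulb, gave B minus A of -0.16 in male 2, -0.29 in male 5, -0.97 in male 6, -3.10 in female 3, -2.78 in female 4, 1.01 in female 7 and -1.12 in female 8, the sign of Slco1c1 in 6 of 7. Gfap, of astrocytes and ensheathing glia, gave -0.51, -0.52, -0.80, -1.02, -2.23, 0.28 and -0.33. Gad2, of inhibitory neurons, had the same sign in 6 of 7, while Aqp4, of astrocyte end feet, did in 2 and the Calb1 probes in 3, 5 and 0. The summed level of the list lay between 94.3 and 161 times the array median in males and between 55.6 and 183 in females.

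Of the 8 probes of the endothelium list 3 were expressed, for Vwf, Kdr and Cldn5, while both Tek probes and 1 probe each of Cdh5 and Vwf were on 0 arrays. Kdr, the main VEGF receptor, gave B minus A of 0.19, -0.22, -0.40, 0.40, -1.03, 0.09 and -0.33 in the order above, the sign of Slco1c1 in 6 of 7, while Cldn5, of tight junctions, had it in 5 and Vwf in 3. The log2 of the summed level of the brain list, B minus A, was -0.036, -0.0059, -0.78, -1.06, -1.23, 0.54 and -0.50 in that order of rats. That of the endothelium list was 0.083, -0.15, -0.37, 0.29, -0.83, -0.056 and -0.30, and that of the ensheathing and Schwann cell list -0.074, -0.13, -0.16, 0.078, -1.58, 0.14 and -0.16. All 3 lists were lowest in B against A in female 4, as Slco1c1 was, while in male 5 the brain list hardly differed and Slco1c1 did. Sums of other lists differed too. The myeloid sum was lower in B in every rat, from -0.45 in female 4 to -0.081 in female 7. The basal cell sum ran from -0.53 in female 8 to 0.039 in male 2. The gland sum ran from -0.38 in male 2 to 1.73 in female 8, and the skeletal muscle sum from -4.64 in female 7 to 0.10 in female 3. The part of brain tissue, vessels or other cell types in these differences was not tested, and in whole tissue fewer cells of a type cannot be told apart from less RNA per cell.

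**Figure D5:**
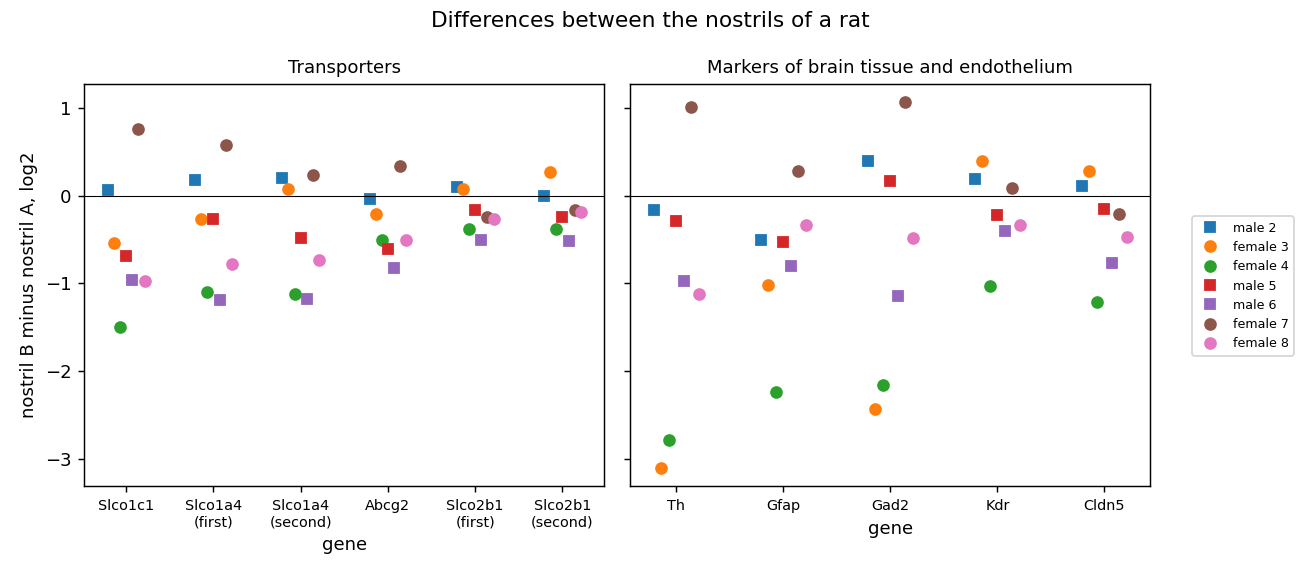
Nostril B minus nostril A on the log2 scale (vertical axis) for 6 transporter probes on the left and 5 marker genes on the right (horizontal axis), 1 point per rat, squares for males and circles for females. The markers were picked from the brain and endothelium lists. Of the expressed ones not drawn, Gad1 and Slc1a3 had the sign of Slco1c1 in 6 or 7 rats. Slc1a2, Aqp4, Calb1, Mbp, Mog and Vwf had it in 5 or fewer. The first Slco1a4 probe is the one with its sequence given first, and the first Slco2b1 probe is the one with the larger mean difference. Female 4 and male 6 lie below 0 and female 7 above 0 for Slco1c1, both Slco1a4 probes, Th and Gad2.

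Whether the nostril difference itself differed between the sexes was tested too. Of 70 members 0 passed 5% for that interaction by limma and 4 had an unadjusted p under 0.05 (652 of 27574 probes did). These were Abcc12, Abcg3 (Abcg3l1 in the RefSeq table), the Abcc4 probe shown above and Slc22a13.

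Genes with several expressed probes allow a check on single-probe results. There were 10 such genes with 22 probes. The sex differences had 1 sign over all probes of a gene for 5 of the 10 and the nostril differences for 6. In 3 genes, Abce1, Abcf1 and Slc15a4, a probe passed 5% between rats, and in none of them did every probe pass. For Abce1 only 1 of the 2 probes was detected on all 15 arrays. Abcc4, Slco1a4 and Slco2b1 had probes that agreed in the sign of both differences. Abca3, the lipid transporter of lamellar bodies, had 3 probes, all detected on 15 arrays, with sex differences of 0.04, -0.05 and -0.08 and intervals that all held 0.

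Of the listed partner genes, 32 probes were tested. None passed 1% or 5% between the sexes or 1% between nostrils or between rats (limma). At 5%, 4 passed between rats, beside 16.1% of all probes: both expressed probes of Pex19, the chaperone of peroxisomal membrane proteins such as Abcd2 and Abcd3, with F of 9.20 and 12.6, Apoa1, the acceptor of cholesterol from Abca1, and the lactate carrier Slc16a3. Pex19 was lowest in males 1 and 2 with both probes, at 4.38 and 4.42 with the first and 4.55 and 4.62 with the second, against 4.55 to 4.86 and 4.65 to 4.99 in the other rats. Abcd3, which Pex19 delivers, ranged over rats from 8.87 to 9.11 and did not pass (adjusted p = 0.173). The sulfonylurea receptors gave adjusted p of 0.308 (Abcc9) and 0.384 (Abcc8).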

How the data were processed

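Values are the intensity per spot that the authors extracted with Agilent Feature Extraction, background-subtracted and not scaled between the 15 arrays (8 rats, 4 slides). Outlier spots (61 to 175 per array) were left out, spots of 1 probe were averaged, and signals were divided by the array median, raised to at least 0.1 of it and taken to log2. The deposited ratio table, in which the authors had divided each signal by the medians of its array and of its probe, served as an alternative. A probe was detected where the software called it well above background. No member spot was saturated.

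Sexes were compared on rat means, rats of 1 sex by the F-statistic of 6 contrasts with nostrils as error, and nostrils with rat as a block, since both came from the same animal, by limma 3.58.1 (eBayes with trend) in R 4.3.3, two-sided. p-values were adjusted (Benjamini-Hochberg) over all probes detected on at least 7 arrays. The methods' t-test was run on the rat means. The fits were tested on simulated data. Intervals are 95% intervals, and the number of rats limits the precision.

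Named genes were those past 1% in a comparison, the 10 with the highest F, the 5 with the largest sex difference each way and the 5 with the largest nostril difference by statistic, genes whose probes disagreed in detection, and a list of transporters by role (65 probes, 52 genes). Other genes are named where a count is small or were chosen after their values were seen. Some members enter the counts but are not reported here by name. Members and lists were chosen with earlier results of these data known. Accessions of 65 member probes matched the RefSeq table; other names are the array's. Alternatives were 75th percentile and quantile scaling, normexp background (offset 50), the study's floor of 0.01 intensity units, the ratio table, other filters, slide or rat as a block, and leaving out each rat.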

Additional observations from a re-analysis of the deposited data

Results flagged for a closer look

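Among 108 sets of 4 rats (54 tested probes of named genes, in each sex), 5 had 1 rat far from the other 3 of its sex, with a gap above Dixon's 95% critical value. Chance alone gives about 1 set in 20. Abcc9, the vascular sulfonylurea receptor, was at -0.64 in male 2, and the nearest male was at -1.64. Abcg5 was at -1.25 in male 1, whose only array was of nostril A, and the nearest male was at -1.64. The second Slco1a4 probe was at 0.028 in female 8, and the nearest female was at -0.83. Slco1a5 was at 6.33 in female 3, and the nearest female was at 6.11. The first Abca3 probe was at 5.36 in female 7, and the nearest female was at 5.27.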

How the results depend on the processing

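Between rats, the count of members past 1% was 0 and became 5 with 75th percentile scaling (1305 of 27574 probes overall), 6 with quantile normalization (1450) and 1 with no filter (980 of 40820), beside 768 of 27574 probes overall in the reported fit, and it ranged from 0 to 2 when 1 rat was left out (2 without female 3, beside 898 of 27587 probes, and 1 without male 1, female 4 or male 6, beside 777, 385 and 646). Abca8b was among the genes called under both scalings and without a filter. For the sexes the count was 0 and became 1 with slide as a block (Abca8b; 468 of 27574 probes overall), 1 with 15 arrays as independent (Abcd2; 1031 overall) and 1 by the methods' t-test before adjustment (Abcd2), and 0 in each fit without 1 rat. With slide as a block the sex differences of Abca7 and Abcc4 turned, to 0.0037 and -0.016. The nostril count of 0 held without the replicate block and in every other fit, and 10 single probes kept the sign of their nostril difference and its side of the threshold in all 160 values. The 4 weakly expressed members became 11 with the flag for positive and significant signal, which left 8 not expressed, and 12 when detection on all 15 arrays was required. Leaving out a rat gave 70 expressed, 3 to 4 weakly expressed and 21 to 22 not expressed. Chosen after seeing the data, the counts past 5% between rats ran from 0 (normexp, 0.671% of all probes, and slide as a block, 0.116%) to 13 (quantile, 20.7%), past 5% between the sexes from 0 to 6 (arrays as independent, 12.6%), and the unadjusted counts from 2 to 14 for the sexes (slide as a block, 20.3% of all probes) and from 3 to 15 for the nostrils. The causes were not tested. Signals near background limit, among others, Abcg2, Abcg5, Abcc9, Abcc12, Slc22a6, Slc22a13 and 1 Abce1 probe, each undetected on at least 1 array.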
